A study of Mus musculus with 11 samples.

Results

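The genes described here are the mouse genes whose symbol begins with Psma, Psmb, Psmc, Psmd, Psme or Psmg followed by a digit. They were 50 of the 21887 protein-coding genes listed by RefSeq for GRCm38.p6 (the mm10 assembly). Of these, 19 encode subunits of the proteasome core (8 alpha and 11 beta) and 17 encode subunits of its cap (6 ATPases and 11 non-ATPases). Another 3 encode chaperones of cap assembly (Psmd5, Psmd9 and Psmd10), 4 encode chaperones of core assembly (the Psmg genes) and 5 encode activators (the Psme genes). The last 2 are taken by their symbol alone and encode no subunit, namely Psmc3ip, a meiotic recombination factor, and Psme3ip1, a protein that binds the activator Psme3. A gene was counted as called in a list where a peak lay within 1000 bases of either end of its mm10 span.

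The proteasome degrades proteins that carry ubiquitin chains. Its core is a barrel of stacked rings, in which the alpha subunits form the gated ends and the beta subunits form the chamber with the proteolytic sites. The cap binds the ubiquitin chains, removes them and uses its ring of ATPases to unfold the substrate and feed it into the core. Most subunit genes are expressed in every cell, and embryonic stem cells are known for high proteasome activity. A few core genes are tissue forms: Psmb8, Psmb9 and Psmb10 encode the catalytic subunits of the immunoproteasome, Psmb11 that of the thymus, and Psma8 an alpha subunit of the testis.

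Chromatin was profiled by CUT&RUN, in which an antibody on chromatin directs a nuclease to release the bound DNA, in mouse embryoid bodies at day 2. The genotypes were Wdr5 knockout (KO), Wdr5 and p53 double knockout (DKO) and wild type (WT), all from embryonic stem cells with a GFP knock-in at Rx, a gene of the eye field. In every group the cells were differentiated with the SFEBq method in GMEM with 5% KSR, doxycycline was taken away at day 0, matrigel came to 2% on day 1, and each reaction took 2 µg of antibody. The antibodies were against H3K4me3, the trimethylated histone mark of active promoters (KO, DKO and WT, 1 list each), and against WDR5, a scaffold of the complexes that write this mark, and P53 (DKO and WT, 2 lists each). The sources used here do not give what doxycycline controlled, how the alleles were made or the number of clones.

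The H3K4me3 lists rested on 22266680 fragments in KO, 43186562 in DKO and 34187012 in WT, and held 918, 6418 and 9836 peaks. Each genotype had 1 H3K4me3 library, so no difference between genotypes has a replicate check and no p-value is given. The lists numbered 2 of WDR5 and P53 came from merged alignments, per the file headers, and were not counted as replicates. The fold enrichment of a peak is the authors' own value, the ratio of the fragments over the summit to those of the surrounding background. It is not scaled between libraries, so values of several lists are set side by side only as a description. In bulk material, fewer cells with the mark and less mark per cell cannot be told apart.

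H3K4me3 was called at 14 of the 50 proteasome genes in KO (28%), 33 in DKO (66%) and 41 in WT (82%). Over all protein-coding genes, 3.2% were called in KO, 22.8% in DKO and 35.5% in WT. All 17 cap subunit genes and 13 of the 14 constitutive core genes were called in WT, whereas 1 of the 5 tissue forms of the core was. Among the 41 genes called in WT, 14 were also called in KO (34.1%), against 8.98% of all genes called in WT. The KO library was the shallowest of the 3, and the part of depth in the KO counts was not tested. In DKO, 32 of the 41 were called (78%), against 59.8% of all genes called in WT. The KO list was also the shortest. With every list limited to its 918 peaks of highest −log10 q, 14 genes were called in KO, 12 in DKO and 17 in WT. Of the 21887 genes, 953 were called in WT at this length, and 3.2% in KO, whose list was unchanged. Of the 17 proteasome genes, 11 were called in KO and 10 in DKO, against 29.9% and 42.3% of the 953. The share of all genes called in DKO at this length was not computed. The counts of 14 in KO and 12 in DKO at this length thus cannot be compared beside a background. The part of list length in the KO counts was not tested.

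**Figure D1:**
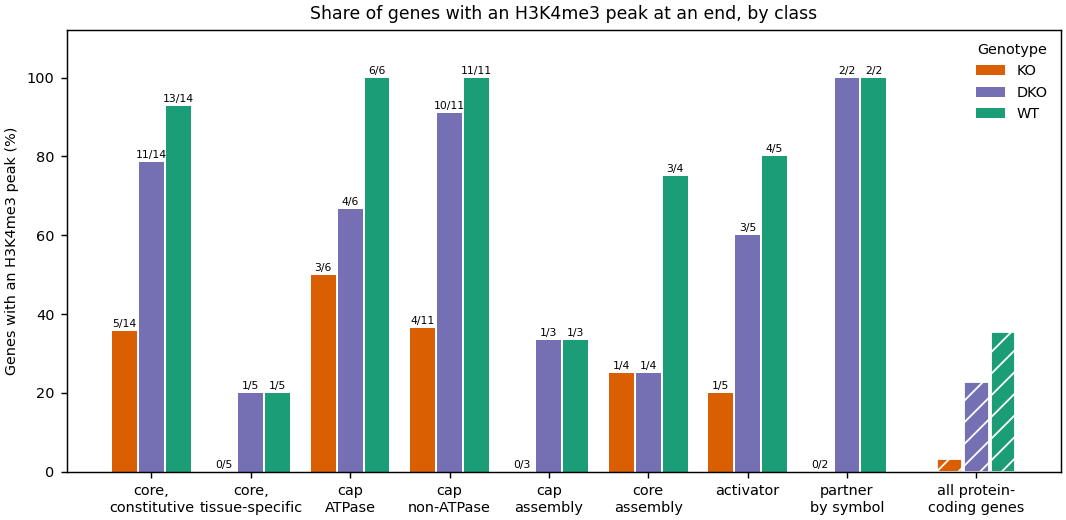
Share of genes (%) with an H3K4me3 peak within 1000 bases of an end, by class of proteasome gene and for all protein-coding genes (hatched), in KO, DKO and WT (1 library each; the numbers above the bars are genes called of genes in the class). The 17 cap genes have bars at 100% in WT, and in WT the tissue forms and the cap assembly genes have the lowest bars of the proteasome classes.

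Of the 14 genes called in KO, 13 were called in all 3 lists, which is 26% of the 50 genes, against 3% of all protein-coding genes. They were the core genes Psma1, Psma2, Psmb1, Psmb5 and Psmb7, the cap genes Psmc3, Psmc6, Psmd1, Psmd3, Psmd4 and Psmd11, the activator gene Psme2 and the assembly gene Psmg2. Psmc1 was called in KO and WT and not in DKO. The other 13 of the 14 genes called in KO and WT (92.9%) were called in DKO, against 94.3% of all such genes. Of the 32 genes called in DKO and WT, 13 were called in KO (40.6%), against 14.2% of all such genes. Of the 9 proteasome genes without a WT peak, 0 were called in KO, against 0.0283% of all genes without one.

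Promoter windows are shown for the 5 genes with the highest fold enrichment in KO among those with a window in the table. These genes had a called H3K4me3 peak in KO, in or downstream of the window. Each window runs from 250 bases before the annotated start to 50 bases after it. It is given 5′ to 3′ on the strand of the gene, in GRCm38.p6 from RefSeq. Capitals mark 6 short motifs on either strand, which are the antioxidant response element core TGACNNNGC, the CCAAT box CCAAT, the GC box GGGCGG, the E-box CACGTG, the ETS motif CCGGAAG and the YY1 motif AAGATGG.
Psmc6, chr14:45329574-45329873 (+): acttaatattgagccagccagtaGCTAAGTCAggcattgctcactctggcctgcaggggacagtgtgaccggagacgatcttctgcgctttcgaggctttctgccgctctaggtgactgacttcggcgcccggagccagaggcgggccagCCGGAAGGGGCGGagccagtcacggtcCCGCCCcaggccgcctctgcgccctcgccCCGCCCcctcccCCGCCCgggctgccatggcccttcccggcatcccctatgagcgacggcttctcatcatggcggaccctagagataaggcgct
Psmd1, chr1:86064369-86064668 (+): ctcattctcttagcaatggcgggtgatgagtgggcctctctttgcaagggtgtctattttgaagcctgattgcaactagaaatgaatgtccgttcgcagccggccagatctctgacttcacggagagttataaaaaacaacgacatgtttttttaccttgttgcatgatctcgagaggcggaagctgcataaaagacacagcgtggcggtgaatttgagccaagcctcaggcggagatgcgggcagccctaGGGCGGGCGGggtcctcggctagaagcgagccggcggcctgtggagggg
Psmd4, chr3:95042565-95042864 (-): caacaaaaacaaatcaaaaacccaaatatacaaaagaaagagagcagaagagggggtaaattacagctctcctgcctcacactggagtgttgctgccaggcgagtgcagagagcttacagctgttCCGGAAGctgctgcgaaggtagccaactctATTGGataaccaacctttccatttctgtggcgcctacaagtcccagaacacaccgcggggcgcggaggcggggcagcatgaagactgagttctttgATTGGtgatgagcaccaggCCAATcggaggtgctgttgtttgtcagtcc
Psmb5, chr14:54617946-54618245 (-): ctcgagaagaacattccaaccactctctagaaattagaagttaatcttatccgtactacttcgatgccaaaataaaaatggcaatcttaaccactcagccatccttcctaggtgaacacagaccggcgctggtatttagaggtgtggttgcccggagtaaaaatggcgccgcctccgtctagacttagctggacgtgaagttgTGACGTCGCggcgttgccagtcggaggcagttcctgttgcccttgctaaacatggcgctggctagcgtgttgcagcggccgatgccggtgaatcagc
Psma1, chr7:114276067-114276366 (-): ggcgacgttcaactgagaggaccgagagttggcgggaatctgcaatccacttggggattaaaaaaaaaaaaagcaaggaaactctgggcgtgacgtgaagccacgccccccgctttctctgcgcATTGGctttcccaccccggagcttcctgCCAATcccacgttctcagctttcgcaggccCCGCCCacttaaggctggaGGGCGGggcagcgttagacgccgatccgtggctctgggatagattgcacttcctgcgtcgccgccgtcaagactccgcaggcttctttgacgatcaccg
A run of capitals can hold motifs that overlap or abut, such as the 2 GC boxes just after the Psmd1 start and the ETS motif and GC box of Psmc6. Psmc6 and Psmb5 hold the antioxidant response element core, the sequence bound by the factors that raise proteasome genes in stressed cells. Of these windows, 12 bases of Psmc6, 285 of Psmd1 and 54 of Psmb5 lay under the KO peak, and the KO peaks of Psmd4 and Psma1 lay wholly downstream of the window.

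Among the alpha genes of the core, Psma1 and Psma2 kept a called peak in all genotypes. Psma1 had a fold enrichment of 5.07 in KO, 5.41 in DKO and 7.07 in WT. Psma2 had 4.60 in KO, 4.97 in DKO and 6.42 in WT. Its peak also lay within 1000 bases of an end of Mrpl32, a mitochondrial ribosomal protein gene, so these calls cannot be assigned to Psma2 alone. Psma3, Psma4 and Psma5 were called in DKO, at 3.60, 4.71 and 4.15, and in WT, at 4.38, 5.57 and 4.62, and not in KO. For Psma3 these values are of peaks at the lower end of its span, and higher peaks lay at its annotated start inside the span, 125 bases from it in DKO (chromosome 12, 70974748 to 70975763, fold enrichment 5.24) and 86 bases from it in WT (70974709 to 70975774, 5.87). Psma7 was called in WT only, at 5.03, and its peak also lay near an end of Ss18l1.

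Psma6 had no peak within 1000 bases of an end of its span in any list, but peaks lay at its second annotated start, 14151 bases inside the span in WT. They had a fold enrichment of 4.58 in KO (chromosome 12, 55398959 to 55399224), 3.80 in DKO (55398904 to 55399168) and 5.67 in WT (55398373 to 55399511). The WT peak covered this start, and the nearest base of the peak was 134 bases from it in KO and 79 bases from it in DKO. Psma6 is therefore not among the called genes in the counts above because of how its span is annotated. The window at this start is shown since it places the peaks, and it was chosen after the values were seen, as were the peaks themselves.
Psma6, chr12:55398575-55398874 (+): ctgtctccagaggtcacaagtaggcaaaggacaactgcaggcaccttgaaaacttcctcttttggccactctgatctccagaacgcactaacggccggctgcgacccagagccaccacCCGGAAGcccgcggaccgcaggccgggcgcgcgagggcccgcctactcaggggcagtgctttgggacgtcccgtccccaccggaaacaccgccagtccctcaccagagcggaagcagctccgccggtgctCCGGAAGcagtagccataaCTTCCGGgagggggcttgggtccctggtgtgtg
It holds 3 ETS motifs and none of the other 5, and all 300 bases lay under the WT peak.

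Psma8, the testis alpha gene, was the only one of the 9 genes without a WT peak that was called in DKO (11.1%), against 2.56% of all genes not called in WT. Its DKO peak had a fold enrichment of 5.08, a pileup of 28 fragments and a −log10 q of 9.33, and lay 248 bases inside the lower end of the gene. The nearest WT peak was 21180 bases from an end.

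Among the beta genes, Psmb5, which encodes the chymotrypsin-like catalytic subunit, had a fold enrichment of 5.31 in KO, 4.50 in DKO and 7.99 in WT. Psmb7, which encodes the trypsin-like subunit, had 4.25 in KO, 5.65 in DKO and 7.72 in WT. Psmb6, the third catalytic gene, was called in DKO, at 4.22, and in WT, at 4.86, and not in KO. Thus 2 of the 3 constitutive catalytic genes were called in KO and all 3 in DKO and WT. Over all protein-coding genes the shares were 3.2%, 22.8% and 35.5%. Psmb1, a structural subunit gene, had 4.37 in KO, 4.49 in DKO and 5.76 in WT.

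Psmb2 was called in DKO, at 4.14, and in WT, at 5.89. Psmb3 was 1 of 2 proteasome genes with a higher fold enrichment in DKO than in WT, at 4.50 against 4.06. These were not the same peak, as the highest WT peak lay 345 bases outside an end of Psmb3, near an end of Pcgf2, and the highest DKO peak 14 bases from an end of Psmb3. Psmb4 was called in WT only, at 5.71. The catalytic immunoproteasome genes Psmb8 and Psmb9 were called in no list. Psmb10, the remaining one, was called in WT, at 4.25, and in DKO its nearest peak, at 2.97, lay 1048 bases from an end, just outside the window. Psmb11 was called in no list, and its nearest peak in each was that of its neighbour Psmb5, at 7311 bases in KO, 7020 in DKO and 7033 in WT.

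All 6 ATPase genes of the cap were called in WT, 4 in DKO and 3 in KO, against 35.5%, 22.8% and 3.2% of all genes. Psmc6 had the highest fold enrichment of all 50 genes in every list, at 7.22 in KO, 7.66 in DKO and 9.74 in WT. Its summits carried 36, 63 and 78 fragments in KO, DKO and WT, and its fold enrichment stood at percentile 98.3 of the genes called in KO, 99.8 in DKO and 99.8 in WT. The peak spanned 442 bases in KO (chromosome 14, 45329862 to 45330303), 586 in DKO (45329860 to 45330445) and 1122 in WT (45329389 to 45330510). The KO and DKO peaks thus began at about the same base, downstream of the start, while the WT peak reached upstream across it.

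Psmc4 had the third highest value in WT, 9.14, with 62 fragments over its summit, and the second highest in DKO, 6.60, with 43, yet had no peak in KO. Psmc3 was called at 3.86 in KO, 4.68 in DKO and 4.45 in WT, and was the other gene with a higher value in DKO than in WT. Psmc5 was called in DKO, at 4.70, and in WT, at 4.89. Psmc1 had 4.11 in KO and 5.70 in WT, and no peak in DKO. Psmc2 was called in WT only, at 4.05, but in DKO a peak with 4.1 lay 34 bases from an annotated start of the gene and 1506 bases from the end of its span, and in WT a peak with 4.48 lay 40 bases from an annotated start. These 6 genes, whose products form a single ring, thus did not share a pattern over the 3 lists.

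All 11 non-ATPase genes of the cap were called in WT, 10 in DKO and 4 in KO, against 35.5%, 22.8% and 3.2% of all genes. Psmd4, a ubiquitin receptor gene, had a fold enrichment of 5.66 in KO, 6.16 in DKO and 9.19 in WT. Its summit lay at base 95042342 of chromosome 3 in KO, 95042345 in DKO and 95042327 in WT, nearly the same place. Psmd1, which encodes a large scaffold subunit, had 5.70 in KO, 4.75 in DKO and 8.06 in WT. Psmd3 had 4.53 in KO, 5.36 in DKO and 8.44 in WT. Psmd11 had 4.95 in KO, 3.95 in DKO and 6.57 in WT. Both Psmd1 and Psmd11 thus had a higher value in KO than in DKO, as did Psmb5, Psme2 and Psmg2. The other proteasome genes called in both lists had the lower value in KO. The values are not scaled between lists, and the median over all peaks was 4.699 in KO and 3.881 in DKO.

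Psmd14, which encodes the deubiquitinating enzyme of the cap, had the lowest value of the 41 genes in WT, 3.80, and was the only non-ATPase subunit gene of the cap with no peak in DKO. Psmd2, the gene of the other large scaffold subunit, was called in DKO, at 4.32, and in WT, at 7.34. Among the highest peaks of the genes, those of Psmd2 lay nearest to the limit of the window, at 617 bases in DKO and 585 in WT. The same peaks lay only 87 bases in DKO and 55 bases in WT from its annotated start, which is not the end of its span. Psmd6, Psmd7, Psmd8, Psmd12 and Psmd13 were called in DKO at 3.68 to 4.90 and in WT at 4.34 to 6.26, and none of them in KO. The Psmd13 peaks also lay near an end of Sirt3, a mitochondrial deacetylase gene.

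Among the assembly genes, the cap chaperone genes Psmd9 and Psmd10 were called in no list, and Psmd5 was called in DKO, at 3.78, and in WT, at 4.66. Of the core chaperone genes, Psmg2 was called at 4.16 in KO, 3.06 in DKO and 4.31 in WT, within 1000 bases of an end of Cep76 in each. Psmg1 and Psmg3 were called in WT only, at 4.99 and 3.98, and Psmg4 in no list. The 7 assembly genes held 1 KO call, 2 DKO calls and 4 WT calls. Over all protein-coding genes 3.2%, 22.8% and 35.5% were called, and 7 genes are too few to set apart from these shares.

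Among the activator genes, Psme2, an interferon-inducible gene, had a fold enrichment of 5.00 in KO, 4.95 in DKO and 6.86 in WT. Psme1, whose product forms a ring with that of Psme2, was called in WT only, at 3.84. Psme4, the gene of a large nuclear activator, was called in DKO and WT, at 3.60 and 7.23. It stood at percentile 23.8 of the genes called in DKO and at percentile 96.5 of those called in WT, so that it stood low among the DKO peaks and near the top of the WT peaks. Psme3 was called in DKO, at 3.87, and in WT, at 5.23, and Psme2b in no list.

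**Figure D2:**
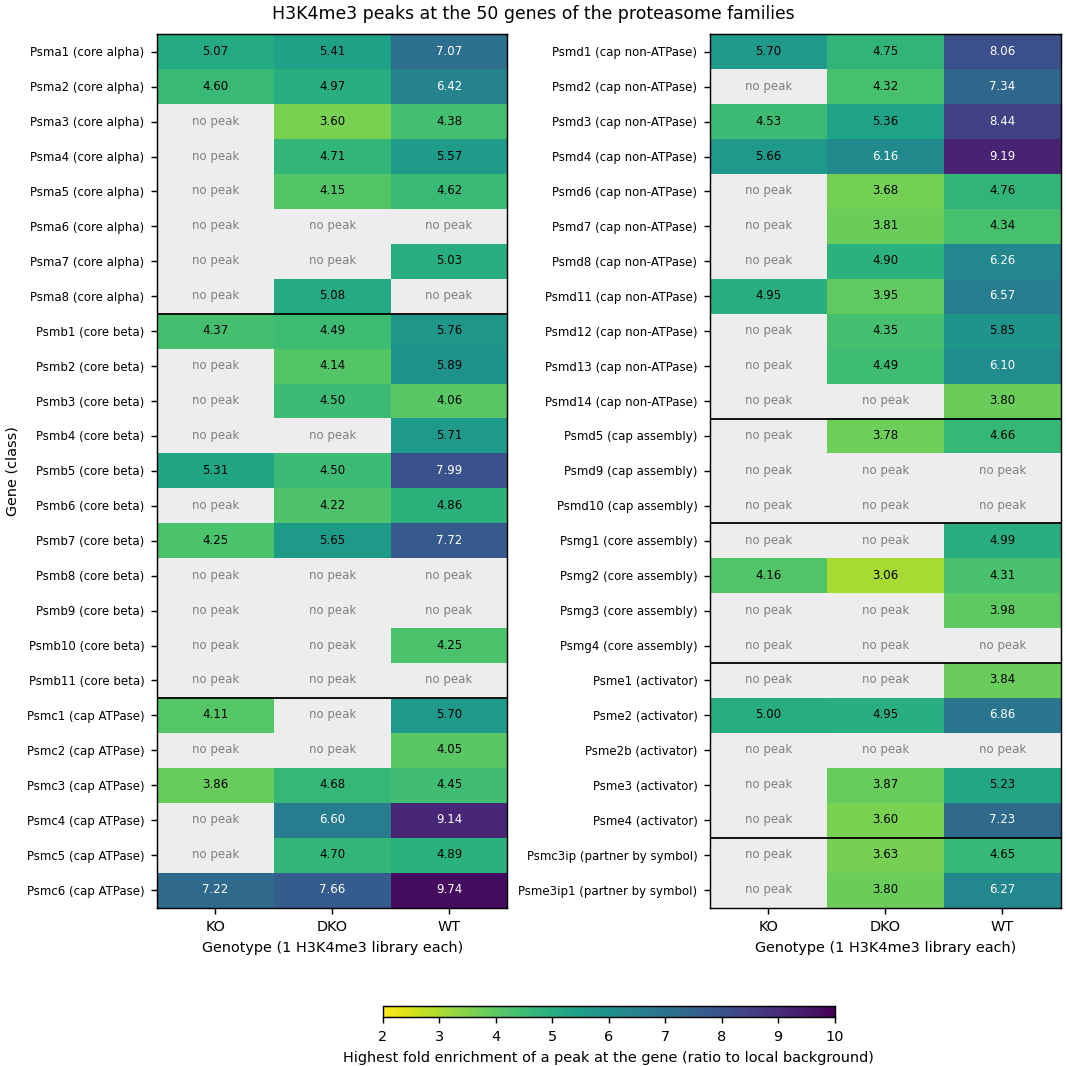
Highest fold enrichment (ratio to local background, the authors' value) of an H3K4me3 peak within 1000 bases of an end of each of the 50 genes, in KO, DKO and WT (1 library each); grey cells had no peak. Psmc6 has the highest value in each column, and the KO column holds 14 values.

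Over the called genes, the median fold enrichment was 4.77 in KO (n = 14), 4.49 in DKO (n = 33) and 5.70 in WT (n = 41). Over all genes called in the same lists it was 4.60 in KO, 4.03 in DKO and 4.72 in WT. The proteasome genes were above the median of their list in 7 of 14 cases in KO, 23 of 33 in DKO and 28 of 41 in WT. In KO they were therefore split evenly around the median of the list. The cap subunit genes had a median of 4.95 in KO, 4.69 in DKO and 6.10 in WT, and the core genes 4.60, 4.50 and 5.64.

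The proteasome genes called in KO were mostly those with high values in WT. The 14 proteasome genes called in KO had a median WT fold enrichment of 6.97, against 4.89 for the 27 that were not. Over all genes called in WT the medians were 5.59 and 4.63. When the genes called in WT were split into 4 bins of equal size by WT fold enrichment, at 4.08, 4.72 and 5.52, 22 of the 41 proteasome genes fell into the highest bin. In that bin 12 of 22 were called in KO (54.5%), against 18.5% of all genes of the bin, and 20 of 22 were called in DKO (90.9%), against 82.2%. In the other bins, 2 of 19 were called in KO. From the lowest bin up, the KO counts were 0 of 5, 2 of 8 and 0 of 6, against 1.65%, 6.34% and 9.43% of all genes, and the DKO counts were 1 of 5, 7 of 8 and 4 of 6, against 35.3%, 53.9% and 67.6%. Below the highest bin, proteasome genes were thus few and their KO counts lay on both sides of the background.

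**Figure D3:**
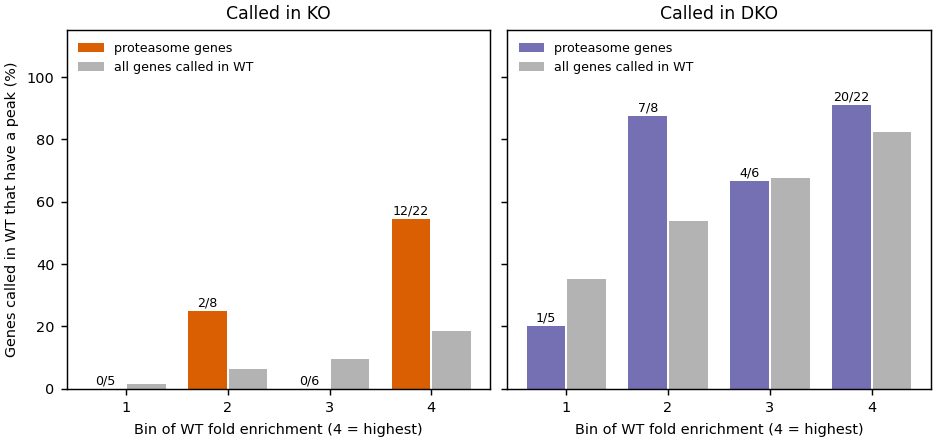
Share (%) of genes called in WT that also had an H3K4me3 peak in KO (left) and DKO (right), by bin of WT fold enrichment (4 is the highest), for the proteasome genes (coloured, with genes called of genes in the bin) and for all genes called in WT (grey). In the highest bin the KO panel shows 12 of 22 proteasome genes and the DKO panel 20 of 22.

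The order of the proteasome genes by fold enrichment was partly kept between lists. Over the 14 genes called in KO and WT, Spearman's rho of their fold enrichments was 0.80 across genes, against 0.33 over the 697 such genes in all. Over the 32 called in DKO and WT it was 0.65, against 0.39 over 4638. Genes are not independent replicates, and in each pair of lists all values come from 2 libraries. The KO value was below the WT value at all 14 genes, while 20.5% of all genes had the higher value in KO. The DKO value was the higher one at 2 of 32 (6.25%), Psmb3 and Psmc3, against 16.5% of all genes.

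The called peaks were narrower in KO than in WT by their medians. These medians are over the genes called in each list (14 in KO, 33 in DKO and 41 in WT), so the genes differ. The summed width at a proteasome gene had a median of 346 bases in KO (267 to 834), 671 in DKO (217 to 1290) and 820 in WT (304 to 1839). Over all called genes the medians were 387 in KO, 536 in DKO and 678 in WT. In DKO, 8 proteasome genes had 2 or more peaks (24.2% of the called ones, against 15.7% of all called genes), in WT 5 had (12.2%, against 17%), and in KO none. At Psma2, Psmb1, Psmc5, Psmd13 and Psmg2, 1 peak was counted in WT and 2 in DKO. These are 5 of the 28 genes with 1 WT peak and a DKO call (17.9%), against 10.9% of all such genes. At Psma2 (chromosome 13, 14612411 to 14612616) and Psmd13 (chromosome 7, 140881317 to 140881638) 1 DKO peak lay outside the WT peak. At Psmb1, Psmc5 and Psmg2 both DKO peaks overlapped the single WT peak. Psmc5 is an example, with DKO peaks of 684 bases (chromosome 11, 106255119 to 106255802) and 399 bases (106256199 to 106256597) and 1 WT peak of 1654 bases (106255104 to 106256757). The start of Psmc5 lies between the DKO peaks and inside the WT peak, and an end of its neighbour Ftsj3 lies there too.

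Most summits lay downstream of the annotated start, as they did over all called genes. The strand was known for 42 of the 50 genes from the RefSeq promoter table, and Psma8, Psmb1, Psmb2, Psmb7, Psmc3, Psmd3, Psmd7 and Psmg2 had no entry. At every one of these called genes, 9 in KO, 25 in DKO and 34 in WT, the highest counted peak was at the end of the span that comes first on the strand of the gene. Its summit lay downstream of the start at 8 of 9 genes in KO (88.9%), 20 of 25 in DKO (80%) and 28 of 34 in WT (82.4%), against 77.8%, 70.9% and 75.2% of all called genes. It lay 100 to 500 bases downstream at 8 of 9 in KO, 14 of 25 in DKO (56%) and 25 of 34 in WT (73.5%), against 51.4%, 35.1% and 46.8%. The median summit position was 287 bases downstream in KO, 269 in DKO and 270 in WT, over genes with a known strand. At Psma3 the counted peaks are those at the end of its span, far upstream of the annotated start and its higher peaks given above, and the gene is left out of the plot of summit positions.

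**Figure D4:**
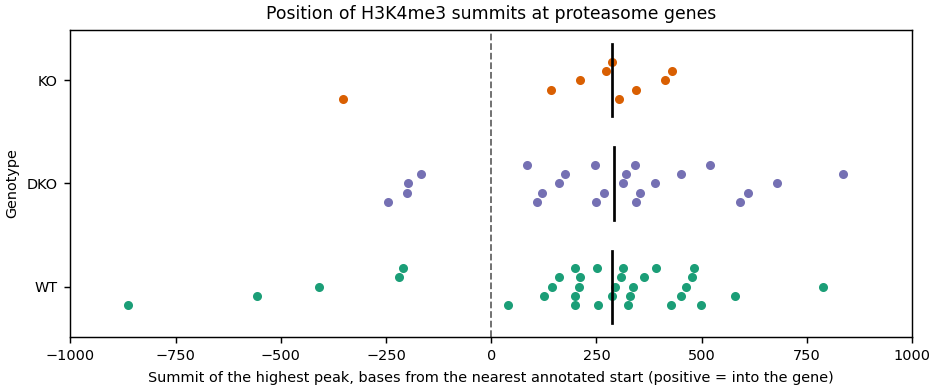
Position of the H3K4me3 summit relative to the annotated start (bases, positive downstream) at the proteasome genes with a known strand in KO (9 genes), DKO (24) and WT (33), 1 point a gene, with the median as a line (287 in KO, 291.5 in DKO and 287 in WT, without Psma3). Most points lie downstream of the start in each genotype.

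Some of these ends are shared with a neighbour. The highest peak also lay within 1000 bases of an end of another protein-coding gene at 3 of 14 proteasome genes in KO (21.4%), 8 of 33 in DKO (24.2%) and 12 of 41 in WT (29.3%), against 37.7%, 35.5% and 30.7% of all called genes. Such pairs include Psma7 with Ss18l1, Psmc2 with Dnajc2, Psmc3ip with Retreg3, Psmc5 with Ftsj3, Psme2 with Rnf31, Psme3ip1 with Rspry1 and Psmg1 with Brwd1. At these ends a peak cannot be assigned to either gene.

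WDR5 peaks were found at none of the 48 genes that encode proteasome subunits, chaperones or activators, in DKO or in WT. The 2 genes with a WDR5 peak were the ones taken by symbol alone. Neither had one in the DKO lists, in which 0.649% (list 1) and 0.42% (list 2) of all protein-coding genes were called. In WT, Psmc3ip was called in both lists and Psme3ip1 in list 1 only, so the 50 genes held 2 calls in list 1 (4%, against 2.44% of all genes) and 1 in list 2 (2%, against 1.5%). With either list taken, 2 of the 50 genes were called in WT, against 2.46% of all genes. As list 2 came from a merged alignment, a peak in both lists is no replication. Over all genes, 0.416% were called in both DKO lists and 1.48% in both WT lists, and the counts for the proteasome genes lie near these shares.

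The WT WDR5 peak at Psmc3ip had a fold enrichment of 4.35 in list 1 (chromosome 11, 101095563 to 101095811) and 4.04 in list 2 (101095587 to 101095783), with the summit on the same base. The summit carried 17 fragments in list 1 and 14 in list 2, with a −log10 q of 3.84 and 2.45. The fold enrichment stood low, at percentile 15.4 of the genes called in list 1 and 2.9 in list 2. The peak at Psme3ip1 had 6.03 and 26 fragments over its summit (chromosome 8, 94601718 to 94602230). The promoter windows of Psmc3ip and Psme3ip1 are shown because these are the windows under the WDR5 peaks.
Psmc3ip, chr11:101095386-101095685 (-): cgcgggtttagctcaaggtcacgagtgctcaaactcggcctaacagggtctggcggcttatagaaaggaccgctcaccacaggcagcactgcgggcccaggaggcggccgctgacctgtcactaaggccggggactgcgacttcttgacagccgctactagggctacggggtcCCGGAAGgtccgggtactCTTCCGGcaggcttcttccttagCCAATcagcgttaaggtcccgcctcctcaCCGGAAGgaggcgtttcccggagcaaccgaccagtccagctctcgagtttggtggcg
Psme3ip1, chr8:94601677-94601976 (-): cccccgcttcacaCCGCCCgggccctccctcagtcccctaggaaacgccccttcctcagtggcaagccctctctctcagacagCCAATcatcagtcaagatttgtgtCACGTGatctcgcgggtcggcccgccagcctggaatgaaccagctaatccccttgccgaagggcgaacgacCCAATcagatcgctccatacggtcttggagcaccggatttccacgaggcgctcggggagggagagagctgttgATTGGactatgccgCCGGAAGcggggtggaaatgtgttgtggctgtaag
Of the 300 bases, 123 lay under the list 1 peak at Psmc3ip and 259 under the one at Psme3ip1. Psmc3ip holds 3 ETS motifs and a CCAAT box, and Psme3ip1 holds an E-box among others. H3K4me3 was called at both genes in DKO, at 3.63 and 3.80, and in WT, at 4.65 and 6.27, and at neither in KO.

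P53 peaks were found at none of the 50 genes in any list. Over all protein-coding genes, 0.032% and 0.0411% were called in DKO lists 1 and 2, and 0.119% and 0.064% in WT lists 1 and 2. A count of 0 of 50 lies near these shares, so nothing about P53 at the proteasome genes can be read from it. Outside the windows, no WDR5 or P53 peak lay inside a proteasome gene or within 10000 bases of one, apart from those at Psmc3ip and Psme3ip1.

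The promoter windows of the 42 genes in the table were compared with those of all 17492 genes in it. The ETS motif was in 16 of 42 (38.1%), against 12.9% of all genes and 23.7% of the 6333 genes called for H3K4me3 in WT. The YY1 motif was in 8 (19%), against 7.18% and 9.63%. The antioxidant response element core was in 6 (14.3%), against 14.8% and 16.5%, namely Psmb5, Psmb6, Psmc6, Psmd9, Psmd12 and Psme4. The proteasome genes held this element at about the share of all promoters. Of the 9 called in KO with a window, 2 held it (22.2%), against 17.5% of all 572 genes called in KO and WT. The GC box was in 24 (57.1%), against 49.2% and 72.8%, the CCAAT box in 16 (38.1%), against 42.3% and 43.7%, and the E-box in 5 (11.9%), against 8.91% and 11.8%. A match is a run of letters and not a bound site, and a gene without one lacks only these letters in this window. The median GC content was 59.2%, against 57.3% of all windows and 62.7% of those called in WT.

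Of 28 other genes of the ubiquitin and proteasome pathway, 5 were called for H3K4me3 in KO (17.9%), 19 in DKO (67.9%) and 24 in WT (85.7%), against 3.2%, 22.8% and 35.5% of all genes. Among the 24 called in WT, 5 were called in KO (20.8%) and 19 in DKO (79.2%), against 8.98% and 59.8% of all genes called in WT. The highest was Vcp, the gene of the segregase that extracts ubiquitinated proteins, with 6.82 in KO, 6.31 in DKO and 8.35 in WT. Txnl1, which encodes a thioredoxin bound to the cap, had 4.36 in KO, 4.61 in DKO and 6.35 in WT. Akirin2, whose product carries proteasomes into the nucleus, had 4.52 in KO, 4.69 in DKO and 4.94 in WT.

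The shuttle factor gene Rad23b had 4.76 in KO, 4.22 in DKO and 4.82 in WT. Psmf1, Ecpas, Ngly1 and Ubqln2 were not called for H3K4me3 in WT. Nfe2l1, the gene of the transcription factor that raises proteasome genes when the proteasome is inhibited, had 4.88 in DKO and 4.09 in WT and no peak in KO. Uchl5, which encodes a deubiquitinating enzyme of the cap, was the only one with a WDR5 peak, at 5.22 in WT list 1, and no such gene had a P53 peak. None of 6 pseudogenes of proteasome subunits had a peak in any list.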

How the data were processed

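CUT&RUN peak lists of 11 samples in 7 groups were used. Per the file headers, the authors used MACS, versions 2.1.2 and 2.1.0.20150731, with no control sample, q below 0.01, 10000 bases of local background and up to 2 duplicates kept. Also named, in the submitters' processing notes, were Bowtie2, SAMtools 1.5, bedtools, MACS2 2.1.0, HOMER 4.10 and mm10. The pileup, a coverage signal in fragments, the −log10 p and −log10 q values and the fold enrichment, a ratio to the local background, are the authors' deposited values. They rank peaks within a list, and where values of several lists stand side by side they are unscaled and a description only.

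The 35 mitochondrial or unplaced peaks were left out. Gene spans and promoter windows (42 of the 50 genes) came from RefSeq tables of GRCm38.p6. A gene was called where a peak lay within 1000 bases of either end of its span. The overlap code was checked on simulated data, and scripts ran in Python 3.11.15 with numpy 2.4.6 and pandas 2.3.3. No test was made with 1 library a group. The genes named are those with a WDR5 or P53 peak, those called for H3K4me3 in KO, those not called in WT, the 5 highest and the 5 lowest in WT, those called in WT and not in DKO, and the other pathway genes with a KO, WDR5 or P53 peak. Of the pathway genes, 1 is not reported here. Further genes, the bins of WT fold enrichment, the genes with 1 WT peak and 2 DKO peaks, and the neighbours were chosen after values were seen. The 50 genes and the other lists were chosen with earlier results of these data known.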

Additional observations from a re-analysis of the deposited data

How the results depend on the processing

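The alternatives were windows of 500 and 5000 bases, a −log10 q of at least 5, the top 50% of peaks by fold enrichment, lists cut to an equal length of 918 peaks, the summit or the start end only, and leaving out Psmc3ip and the tissue forms. Leaving out Psme3ip1 as well and using the promoter-table starts were chosen after seeing the data. Of 158 recomputed values, 138 stayed within 1.5 times the reported count. These include the WDR5 counts in DKO and the P53 counts in DKO and WT, which were 0 in every setting. Settings that only removed peaks or genes could not raise them. Genes called in WT and also in KO or DKO were compared by their count and not by their share. With the top 50% of peaks, the KO count was 7 in place of 14, with 7 of 32 of those called in WT (against 6.22% of all genes), 2 core genes and 4 cap genes. At the start end only, over the 42 genes with a strand, the KO count was 9, with 9 of 34 of those called in WT, and 3 core genes. The share of all genes was not computed at this setting, so these counts cannot be set against a background. At equal length, 12 genes were called in DKO and 17 in WT, where 953 of all genes were called in WT. Of those 17, 10 were called in DKO, against 42.3% of all genes called in WT. The core had 5 DKO and 5 WT calls and the cap 6 DKO and 9 WT calls. There, 11 of the 17 genes called in WT were called in KO, against 29.9% of all genes. The count of genes with a WDR5 peak in both WT lists, 1 as reported, was 0 at a −log10 q of at least 5, 0 with the top 50%, 0 without Psmc3ip and 0 without both partner genes, 2 where either list sufficed, and 1 to 2 when a list was left out. The cause of these differences was not tested. Where either list sufficed or a list was left out, a WDR5 peak in both lists was no longer required. At the other settings fewer peaks or genes entered. No paired analysis was possible because no result comes from a test, each genotype having 1 H3K4me3 library and lists numbered 2 coming from merged alignments. Depth differed between libraries, so a missing KO peak says only that none was called at this depth.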
